A study of Sus scrofa with 12 samples.

Results

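Stage 3 cultures of pig aortic valve interstitial cells that had received KPT were compared with untreated Stage 2 cultures, the untreated stage at which genes of mitosis were lowest. The comparison asks what sets the KPT-treated state apart from cells that grow slowly without it. It takes 6 of the 12 libraries of the series, chosen by their labels, 3 on each side, and all 13046 of 22861 deposited genes that were expressed highly enough to be tested. Because Stage 2 was picked for its low mitosis genes, its place below the other untreated stages is not a finding.

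Messenger RNA was measured by sequencing in cultured porcine aortic valve interstitial cells (pAVICs), fibroblast-like cells that build the leaflet, grown on glass in DMEM as the stimulus for calcification. The Stage 3+KPT and Stage 3+DMSO cultures received KPT or its solvent DMSO once they had reached Stage 3, the Stage 2 cultures were taken at day 8 and the Stage 1 cultures at day 5, with 3 biological replicates in each of the 4 groups. The longest growth that the labels name is 12 days. For the Stage 3 libraries the day, and for KPT the dose and duration, were not given in the sources used here. KPT-treated and Stage 2 cultures therefore differ in time in culture, in solvent and in KPT, which cannot be told apart in this comparison alone, so Stage 3+DMSO values from the same fit stand beside the main ones.

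KPT is not spelled out further in the labels. Drugs whose code names begin with KPT are generally inhibitors of XPO1 (exportin 1), the receptor that carries proteins with a leucine-rich export signal, and some RNAs, out of the nucleus through the pore. Cargoes of XPO1 include p53 and other regulators of growth, and cells are known to make more XPO1 messenger RNA when the receptor is blocked. Valve interstitial cells rest as quiet fibroblasts in a healthy leaflet, take on contractile filaments when activated on stiff surfaces, and can move towards bone-like expression in calcific valve disease.

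Expression is given as RPKM, reads scaled to the length of the exons and to a library total, and fold changes as differences of log2(RPKM + 1), Stage 3+KPT minus Stage 2, with their standard errors (SE). Adjusted p is from limma, corrected by the Benjamini-Hochberg method over all tested genes, and a gene is called where it is under 0.05. Whole reads recovered from the RPKM gave library totals of 13188023 to 24724019, in a unit that the files do not give. Pearson's r across genes between replicates was 0.985 to 0.994, and every replicate pair differed by more than counting noise, with chi-square per degree of freedom between 5.94 and 48.4. Nothing says whether replicates came from separate animals, so p-values measure only the spread between these cultures. The 100 most abundant genes of a library took 30.7% to 31.4% of its reads in the Stage 3+KPT libraries and 35.9% to 37.4% in the Stage 2 libraries.

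Most genes differed. KPT-treated cultures had 8801 of 13046 tested genes called (67.5%), of which 5549 were higher (42.5%) and 3252 lower (24.9%) than at Stage 2. A change of at least 2-fold on this scale was reached by 1351 higher genes (10.4%) and by 952 lower genes (7.30%). The median log2 fold change of all tested genes was 0.18, and the medians of gene groups below are read against it. Their counts of rises and falls are read against the shares of 42.5% and 24.9%. The split between directions depended on scaling, since 63.0% of calls were higher as deposited, against 48.7% after rescaling by the median ratio, 50.9% after quantile normalization and 50.3% with limma-voom on the recovered reads. The libraries of the 2 groups did not overlap for 70.1% of genes.

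The KPT-treated libraries lay apart from all untreated ones. Along principal component 1 (59.4% of the variance) the Stage 3+KPT libraries lay between 69.6 and 71.6, while all 9 untreated libraries lay between -32.8 and -12.1. All 3 Stage 3+KPT libraries were above every untreated library for 3374 genes (25.9%) and below every one for 2320 genes (17.8%). In the same fit, Stage 3+KPT minus Stage 3+DMSO called 7831 genes (60.0%; 30.5% higher and 29.5% lower), and Stage 3+DMSO minus Stage 2 called 5755 (44.1%; 33.0% higher and 11.1% lower). These comparisons share libraries, so they are given side by side and no overlap between them is drawn. Counts of gene lists in the comparisons with Stage 3+DMSO are read against the shares given here.

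**Figure D1:**
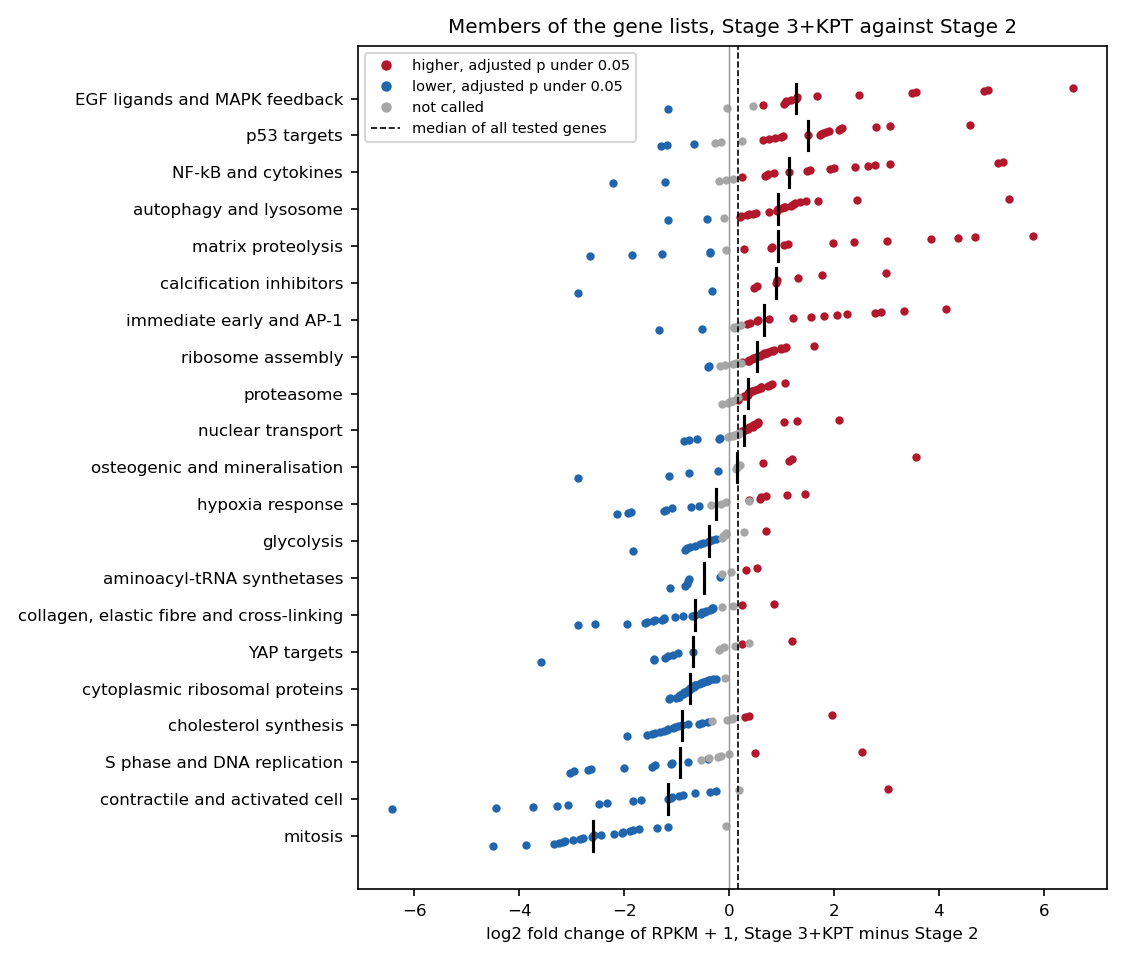
Log2 fold change of RPKM + 1, Stage 3+KPT minus Stage 2, for each tested member of 21 gene lists (1 point a gene; red, higher and blue, lower at adjusted p under 0.05; grey, not called), with the median of each list as a black bar and the median of all tested genes, 0.18, as a dashed line. List medians run from 1.51 for p53 targets to -2.59 for mitosis.

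Mitosis genes were lower in KPT-treated cultures. Of 22 tested mitosis genes, 21 fell and none rose (median -2.59, against 0.18 for all genes, or -2.52 with the 2 genes that had no read after KPT set to 3 reads over the group), and the same 21 lay below all 9 untreated libraries. The median was -4.36 with a pseudocount of 0.1 and -5.49 with limma-voom on the recovered reads. Summed over the 22 genes, RPKM were 36.5 to 37.2 in the Stage 3+KPT libraries and 254.2 to 263.99 in the Stage 2 libraries. MKI67 (chromosome 14, positions 149170562 to 149198585, minus strand; genome build not given), a protein of dividing nuclei that is used as a proliferation marker, had 0, 0 and 0.00833 RPKM in the Stage 3+KPT libraries, against 4.92, 4.29 and 4.09 RPKM in the Stage 2 libraries. That was 2 reads in all under KPT and 2305 at Stage 2, a Stage 2 over KPT ratio of 1297 with a 95% counting interval of 359 to 10720. At Stage 3 with DMSO it had 11.1, 9.15 and 8.93 RPKM, and no library of the untreated groups shown was below 4.09 RPKM. In bulk RNA, fewer cells of a kind and less RNA per cell cannot be told apart.

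Cyclin B1, the partner of CDK1 at entry into mitosis, fell farthest of the mitosis list on the log2(RPKM + 1) scale, on which genes near 0 cannot fall far; by ratio MKI67 fell farther. CCNB1 had 0.234, 0.148 and 0.0189 RPKM in the Stage 3+KPT libraries, against 26.1, 22.8 and 24.9 RPKM in the Stage 2 libraries (log2 fold change -4.50, SE 0.14; adjusted p = 8.55e-11). KIF20A, a kinesin of cell division, averaged 0.140 ± 0.0646 RPKM after KPT and 15.7 ± 1.32 RPKM at Stage 2 (SD, n = 3 each; -3.87). DLGAP5, a spindle protein, averaged 0.0520 and 9.79 RPKM (-3.34). CDC20, which activates the anaphase-promoting complex, fell least of those called, to 20.3 ± 1.44 RPKM against 46.9 ± 4.69 RPKM (-1.17). Chosen after their values were seen, CENPE was the one mitosis gene not called (3.68 against 3.86 RPKM), and CENPA and BUB1B had no read in any Stage 3+KPT library. Stage 3+DMSO cultures had 21 of the 22 genes higher than Stage 2 (median 1.01). That direction follows from picking Stage 2 for its low mitosis genes and is not a finding. KPT cultures had all 22 lower than Stage 3+DMSO (median -3.40).

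DNA replication genes fell with them, but not all. Among 18 tested S phase genes 11 fell and 2 rose (median -0.94). UHRF1, which recruits the maintenance DNA methyltransferase to new DNA, had 0, 0 and 0.0347 RPKM after KPT, against 8.30, 6.59 and 6.97 RPKM at Stage 2. Its 3 reads against 1361 gave a Stage 2 over KPT ratio of 510.5 (95% counting interval 174 to 2479). The replicative helicase subunits MCM3 and MCM4 fell by 2.69 and 2.63 on the log2 scale, and E2F1, the transcription factor that turns on S phase genes, averaged 0.418 ± 0.178 RPKM after KPT and 9.97 ± 0.702 RPKM at Stage 2 (-2.96). PCLAF, a partner of the PCNA clamp, had 1 read after KPT and 1134 at Stage 2, a Stage 2 over KPT ratio of 1276 (95% counting interval 229 to 50450).

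PCNA itself, the sliding clamp of replication and repair, went the other way. It had 128.5, 127.3 and 123.7 RPKM in the Stage 3+KPT libraries, against 17.3, 23.4 and 23.3 RPKM in the Stage 2 libraries (2.53, SE 0.13; adjusted p = 3.0e-09). Stage 3+DMSO lay between them, at 59.3 ± 8.95 RPKM, and all 3 KPT libraries were above every untreated library. PCNA is also known as a direct target of p53. RFC3, a subunit of the clamp loader, was 16.9 RPKM after KPT and 11.6 RPKM at Stage 2 (0.50), but 26.4 RPKM with DMSO.

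Inhibitors of the cyclin-dependent kinases moved in both directions. CDKN2B, which encodes the CDK4/6 inhibitor p15, had 59.4, 82.2 and 63.9 RPKM in the Stage 3+KPT libraries, against 7.08, 10.6 and 11.3 RPKM at Stage 2, with no overlap (2.71, SE 0.20; adjusted p = 1.2e-07). CDKN2A rose to 17.8 ± 0.969 RPKM after KPT, against 7.32 ± 1.42 RPKM (1.19), and RB1, the retinoblastoma protein, to 30.0 ± 3.87 RPKM against 9.63 ± 0.521 RPKM (1.54). CCNG2, an unusual cyclin linked to arrest, rose to 35.6 RPKM against 9.06 RPKM (1.86). The inhibitors CDKN2C and CDKN2D fell by 0.85 and 0.75. Of the 15 cyclins, kinases, E2F factors and inhibitors tested, 5 rose and 9 fell (median -0.44). Among all genes 42.5% rose and 24.9% fell. CCND1, the cyclin of early G1, was not called, at 146.8 ± 10.06 RPKM after KPT and 174.6 ± 10.04 RPKM at Stage 2 (-0.25, adjusted p = 0.18), and became called in 3 alternatives. CDKN1A and CDKN1B were not analysed here.

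**Figure D2:**
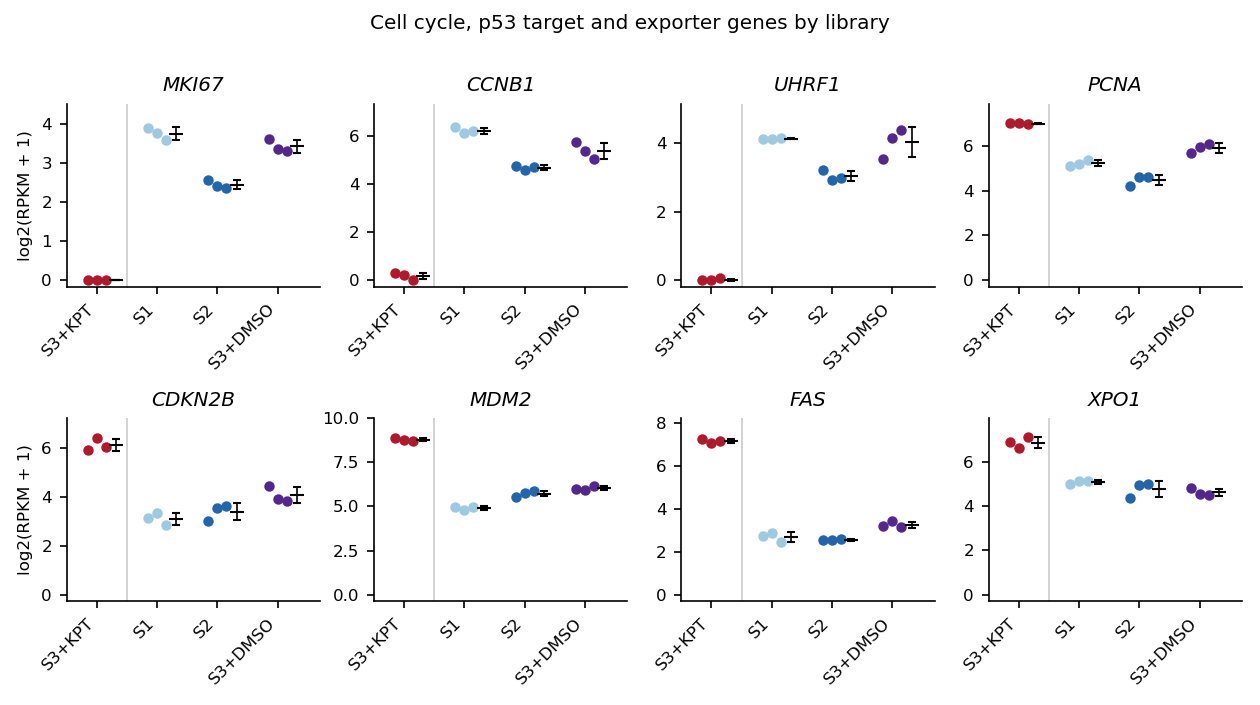
Log2(RPKM + 1) of 8 cell cycle, p53 target and transport genes in each library (coloured points), with the mean and SD of each group (black), Stage 3+KPT left of the grey line and the untreated Stages 1 and 2 and Stage 3+DMSO right of it. MKI67, CCNB1 and UHRF1 are near 0 in the KPT libraries, while PCNA, CDKN2B, MDM2, FAS and XPO1 lie above all 9 untreated libraries.

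Targets of p53, the tumour suppressor that halts damaged or stressed cells, rose together. Of 23 tested p53 targets 17 rose and 3 fell (median 1.51), and 16 lay above all 9 untreated libraries. The same shares of all genes were 42.5%, 24.9% and 25.9%. FAS, the death receptor, had 149.4, 131.5 and 141.7 RPKM in the Stage 3+KPT libraries, against 4.80, 4.75 and 5.01 RPKM in the Stage 2 libraries (4.60, SE 0.11; adjusted p = 1.4e-11), a 29.0-fold ratio of means. MDM2 (chromosome 5, positions 35889682 to 36061995, plus strand), the ubiquitin ligase that degrades p53 and is induced by it, had 477.2, 435.5 and 419.8 RPKM after KPT, against 45.9, 53.3 and 57.4 RPKM at Stage 2 (3.07, SE 0.09; adjusted p = 5.4e-11). Neither gene's groups overlapped, and with DMSO FAS was at 8.54 RPKM and MDM2 at 64.2 RPKM.

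Further targets rose less steeply. TP53INP1, which promotes autophagy and death under p53, averaged 85.0 ± 6.15 RPKM after KPT and 11.3 ± 1.58 RPKM at Stage 2 (2.81). ZMAT3, an RNA-binding target, averaged 100.9 ± 12.3 and 22.1 ± 3.64 RPKM (2.15), and PHLDA3, an inhibitor of AKT, 975.1 ± 63.4 and 228.1 ± 6.39 RPKM (2.09). The 3 that fell were DDB2 and POLH, which act in repair and bypass of ultraviolet damage, and SESN1. DDB2 averaged 21.7 ± 1.67 RPKM after KPT and 54.4 ± 2.96 RPKM at Stage 2 (-1.29), and POLH 7.16 and 17.5 RPKM (-1.18). SESN1 averaged 13.5 and 22.2 RPKM (-0.68).

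XPO1 (chromosome 3, positions 84163385 to 84182474, plus strand) had the largest log2 fold change of the transport list. Its level was 115.9, 97.3 and 136.9 RPKM in the Stage 3+KPT libraries, against 19.6, 29.6 and 31.2 RPKM in the Stage 2 libraries (2.096, SE 0.16; adjusted p = 1.6e-07), and 23.7 ± 2.69 RPKM with DMSO. No untreated library reached the lowest treated one. Of 30 tested nuclear transport genes 19 rose and 5 fell (median 0.29), but after median-ratio rescaling 9 rose and 7 fell (median 0.09), so the list's tilt was close to the shift of all genes.

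Members of that list still moved apart from each other. XPO4, another export receptor, averaged 12.3 RPKM after KPT and 4.40 RPKM at Stage 2 (1.30), and TNPO1, the import receptor of RNA-binding proteins, 73.5 and 35.3 RPKM (1.04). The import receptors IPO5 and KPNB1 fell, KPNB1 to 53.3 ± 2.77 RPKM after KPT, against 91.8 ± 1.37 RPKM (-0.77), and IPO5 to 65.0 ± 2.30 RPKM, against 119.3 ± 9.67 RPKM (-0.86). The tRNA exporter XPOT fell to 54.0 RPKM, against 83.2 RPKM (-0.61).

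Contractile genes were mostly lower in KPT-treated cultures. Of 19 tested genes of contractile, activated valve cells 17 fell and 1 rose (median -1.16), and 14 lay below all 9 untreated libraries. With DMSO 12 of the 19 were also lower than at Stage 2 and 2 were higher (median -0.55). KPT minus DMSO gave 1 higher and 15 lower (median -1.16). Summed RPKM were 23288 to 24460 after KPT, 40638 to 41384 with DMSO and 49763 to 55563 at Stage 2. DES (chromosome 15, positions 134560460 to 134567338, plus strand) encodes desmin, the muscle intermediate filament. It had the largest fall among the named genes on the log2(RPKM + 1) scale. By ratio other genes fell farther, among them MKI67, PCLAF and UHRF1. DES had 0.467, 0.491 and 0.405 RPKM in the Stage 3+KPT libraries, against 152.4, 123.3 and 102.3 RPKM in the Stage 2 libraries (-6.43, SE 0.33, limma adjusted p = 4.0e-09). Much of that difference was also there with DMSO, which had 2.62, 11.8 and 4.14 RPKM (Stage 3+DMSO minus Stage 2, -4.34; Stage 3+KPT minus Stage 3+DMSO, -2.09). ACTG2, the enteric smooth muscle actin, followed the same order, at 8.08 ± 3.696 RPKM after KPT, 17.6 ± 5.74 RPKM with DMSO and 190.1 ± 43.5 RPKM at Stage 2, and its highest KPT library overlapped the lowest DMSO library.

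For other filament genes the KPT minus DMSO difference was -1.91 for ACTA2, -2.62 for CNN1 and -2.39 for TPM1, and the DMSO minus Stage 2 difference -0.57, -1.13 and -0.89, without a test of one against the other. ACTA2, the smooth muscle actin that marks activated valve cells, had 2445, 2388 and 1999.8 RPKM after KPT, against 14092, 12225 and 11716 RPKM at Stage 2 (-2.48, SE 0.11; adjusted p = 8.8e-10), and 8571 ± 1149 RPKM with DMSO. CNN1, calponin, averaged 62.3 ± 10.5 RPKM after KPT, 384 ± 11.0 RPKM with DMSO and 844 ± 102 RPKM at Stage 2 (-3.75). TPM1, a tropomyosin of the actin filament, averaged 589 ± 82.9, 3072 ± 316 and 5689 ± 343 RPKM in the same order (-3.28). The groups did not overlap for any of these 3 genes. POSTN, periostin, a secreted matrix protein that sits in this list as a sign of activation, was the one member that rose, to 2872 ± 210 RPKM after KPT, against 356.2 ± 79.5 RPKM at Stage 2 (3.03), with 1068 ± 130 RPKM with DMSO.

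Genes known to answer to YAP, the coactivator that senses stiff surfaces and tension, mostly fell. Of 15 tested, 8 fell and 2 rose (median -0.69). ANKRD1 averaged 3.97 ± 0.286 RPKM after KPT and 58.6 ± 6.59 RPKM at Stage 2 (-3.58), with 18.8 RPKM with DMSO. CTGF, a secreted matrix-associated protein, had 816.8, 794.2 and 742.4 RPKM after KPT, against 1839.9, 1818 and 1611 RPKM at Stage 2 (-1.16), and 2195 RPKM with DMSO. YAP1 itself rose to 65.7 ± 8.35 RPKM, against 27.9999 ± 3.14 RPKM (1.20), while the DNA-binding partner TEAD4 fell to 2.63 RPKM, against 7.55 RPKM (-1.22). CYR61 was called higher by 0.24, a call lost in 6 of the 18 alternatives. SNAI2, a repressor that holds cells in a mesenchymal state, was among the largest falls, with 2.28, 3.41 and 3.16 RPKM after KPT, against 94.9, 99.6 and 100.8 RPKM at Stage 2 (-4.67, SE 0.20; adjusted p = 7.4e-10).

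Structural matrix genes fell broadly. Of 27 tested collagen, elastic fibre and cross-linking genes 23 fell and 2 rose (median -0.65). ELN, elastin, had 4.20, 5.39 and 4.09 RPKM in the Stage 3+KPT libraries, against 37.4, 47.1 and 35.9 RPKM in the Stage 2 libraries (-2.89, SE 0.16; adjusted p = 1.0e-08). With DMSO it was higher than at Stage 2, at 83.8 ± 20.001 RPKM, so the treated and untreated Stage 3 cultures lay on opposite sides of Stage 2. COL5A1, which nucleates collagen fibrils, averaged 338.6 ± 8.11 RPKM after KPT and 2008 ± 301 RPKM at Stage 2 (-2.55). LOX, the lysyl oxidase that cross-links collagen and elastin, averaged 107.9 ± 2.47 and 419.2 ± 7.21 RPKM (-1.95).

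The most abundant collagens fell by less. COL1A2, a chain of type I collagen, averaged 3989 ± 171 RPKM after KPT and 9724 ± 263 RPKM at Stage 2 (-1.29). COL3A1 averaged 4132 ± 148 and 6013 ± 264 RPKM (-0.54), a fall that was not called after quantile normalization (-0.00, adjusted p = 0.97). The 2 members that rose were fibulins of the elastic fibre, FBLN1 at 813.7 ± 53.9 RPKM against 450.1 ± 7.61 RPKM (0.85) and FBLN5 (0.26), the second of which was not called in 5 of 18 alternatives. COL1A1 was not analysed here.

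Some genes of the secreted matrix outside that list are named because they were among the largest falls. CTHRC1, a collagen-like protein made by activated fibroblasts, had 6.504, 7.003 and 7.295 RPKM after KPT, against 215.6, 195.7 and 200.9 RPKM at Stage 2 (-4.69, SE 0.06; adjusted p = 1.1e-13). Stage 3+DMSO libraries were at 243.3 ± 8.61 RPKM, 0.25 above Stage 2 on the log2 scale. PKDCC, a secreted kinase of extracellular proteins, averaged 24.9 ± 1.42 RPKM after KPT and 355.9 ± 26.8 RPKM at Stage 2 (-3.78), OLFML2B 15.2 ± 0.978 and 200.3 ± 31.6 RPKM (-3.63), and EFEMP1, another fibulin, 1.17 ± 0.495 and 28.9 ± 2.83 RPKM (-3.81).

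Genes of proteoglycans and cartilage mostly fell. Of 19 tested, 12 fell and 5 rose (median -0.65), and the 5, named after their values were seen, were SOX9, SOX5, COMP, HAPLN1 and HAPLN3. The small leucine-rich proteoglycans BGN and FMOD, which bind collagen fibrils, fell by 1.20 and 1.105, BGN to 2926 ± 149 RPKM after KPT, against 6746 ± 345 RPKM. VCAN, the large hyaluronan-binding versican, fell to 47.0 ± 4.45 RPKM, against 135.2 ± 7.90 RPKM (-1.51). SOX9, the master regulator of cartilage, rose to 61.6, 61.6 and 64.6 RPKM in the Stage 3+KPT libraries, against 25.8, 26.8 and 26.2 RPKM at Stage 2 (1.22, SE 0.07; adjusted p = 1.4e-08), and HAPLN3, a link protein that ties proteoglycans to hyaluronan, to 42.3 against 14.4 RPKM (1.49).

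Several matrix-degrading enzymes rose while structural matrix genes mostly fell. Of 18 tested genes of matrix proteolysis 12 rose and 5 fell (median 0.93). That list holds protease inhibitors as well as proteases, and enzymes were not counted alone. MMP1, the interstitial collagenase, had 601.2, 574.5 and 572.3 RPKM in the Stage 3+KPT libraries, against 11.1, 8.50 and 8.95 RPKM in the Stage 2 libraries (5.80, SE 0.13; adjusted p = 8.7e-12), a 61.1-fold ratio of means, and 8.26 RPKM with DMSO. Stage 1 cultures had more of it than Stage 2, at 77.6 ± 4.86 RPKM. Tissue plasminogen activator, PLAT, had 2231, 2482 and 2559.9 RPKM after KPT, against 111.4, 117.6 and 120.6 RPKM at Stage 2 (4.37). The aggrecan-cleaving proteases ADAMTS1, which is held by 2 gene IDs, and ADAMTS5 rose by 4.69 and 3.85, ADAMTS5 to 52.8 ± 1.54 RPKM, against 2.74 ± 0.491 RPKM.

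The same class also held falls. PLAU, the urokinase activator of plasminogen, averaged 48.8 ± 4.99 RPKM after KPT and 177.8 ± 5.88 RPKM at Stage 2 (-1.85), opposite to PLAT. ADAMTS9 averaged 3.36 ± 0.357 and 26.3 ± 0.411 RPKM (-2.65). TIMP1, an inhibitor of metalloproteinases, averaged 1213 ± 71.5 RPKM after KPT and 2930 ± 141 RPKM at Stage 2 (-1.27), but 879.5 ± 185 RPKM with DMSO, below the KPT mean. MMP2, the abundant gelatinase, rose to 3574 ± 325 RPKM, against 1643 ± 35.4 RPKM (1.12).

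Genes of bone formation did not move as a group. Of 11 tested osteogenic genes 4 rose and 4 fell (median 0.14, close to that of all genes), against 42.5% higher and 24.9% lower of all genes. The list has 19 genes with a row. Those not tested, among them SP7, IBSP, DMP1 and PHEX, were under the expression filter. None of them exceeded 0.353 RPKM in a Stage 3+KPT or Stage 2 library. BMP2, a growth factor that induces bone, had 35.8, 36.7 and 39.6 RPKM in the Stage 3+KPT libraries, against 2.07, 1.88 and 2.81 RPKM in the Stage 2 libraries (3.57, SE 0.26; adjusted p = 1.0e-07), and 4.89 RPKM with DMSO. RUNX2, the master transcription factor of osteoblasts, which is held by 2 gene IDs here, had 31.96, 30.3 and 36.9 RPKM after KPT, against 14.4, 14.6 and 14.2 RPKM at Stage 2 (1.14, SE 0.10; adjusted p = 4.2e-07), and 8.88 RPKM with DMSO. SPARC, osteonectin, fell to 7225 ± 295 RPKM, against 16041 ± 552 RPKM (-1.15).

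Among the late mineralisation genes, SPP1 and BGLAP were not called. SPP1, osteopontin, averaged 18.4 ± 0.695 RPKM after KPT and 15.8 ± 0.487 RPKM at Stage 2 (0.21, SE 0.32; adjusted p = 0.59). It was called (limma adjusted p = 0.047) when the 2 groups were fitted alone, which leaves out the Stage 1 and Stage 3+DMSO libraries. The spread of SPP1 in Stage 3+DMSO was 13.6 RPKM. What changed the call was not tested. BGLAP, osteocalcin, averaged 0.530 ± 0.440 and 0.400 ± 0.386 RPKM (0.13, SE 0.30; adjusted p = 0.73), and a difference of this size was not detectable at such a level. ALPL was not analysed here.

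Inhibitors of calcification were mostly higher than at Stage 2. Of 9 tested, 7 rose and 2 fell (median 0.89). With DMSO 6 of the 9 were also higher than at Stage 2 and 2 were lower (median 0.39), against 33.0% and 11.1% of all genes. KPT minus DMSO gave 3 higher and 2 lower (median 0.03), near the 30.5% and 29.5% of all genes. That count is not read as a change of the group. MGP, the matrix Gla protein that keeps soft tissue free of mineral, had 5308, 5574 and 5425 RPKM in the Stage 3+KPT libraries, against 1552, 1555 and 1658 RPKM in the Stage 2 libraries (1.77, SE 0.08; adjusted p = 1.3e-09). Most of that difference was present with DMSO, at 4378 ± 532 RPKM (Stage 3+DMSO minus Stage 2, 1.46; Stage 3+KPT minus Stage 3+DMSO, 0.32). GREM1, a secreted BMP antagonist, rose to 35.1 ± 1.60 RPKM after KPT, against 3.62 ± 1.03 RPKM at Stage 2 (2.99), with 1.67 RPKM with DMSO. NT5E, which makes adenosine outside the cell, rose to 464 ± 7.27 RPKM, against 186.5 ± 12.3 RPKM (1.31). TNFRSF11B, osteoprotegerin, fell to 11.5 ± 0.245 RPKM, against 90.6 ± 9.49 RPKM (-2.87).

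**Figure D3:**
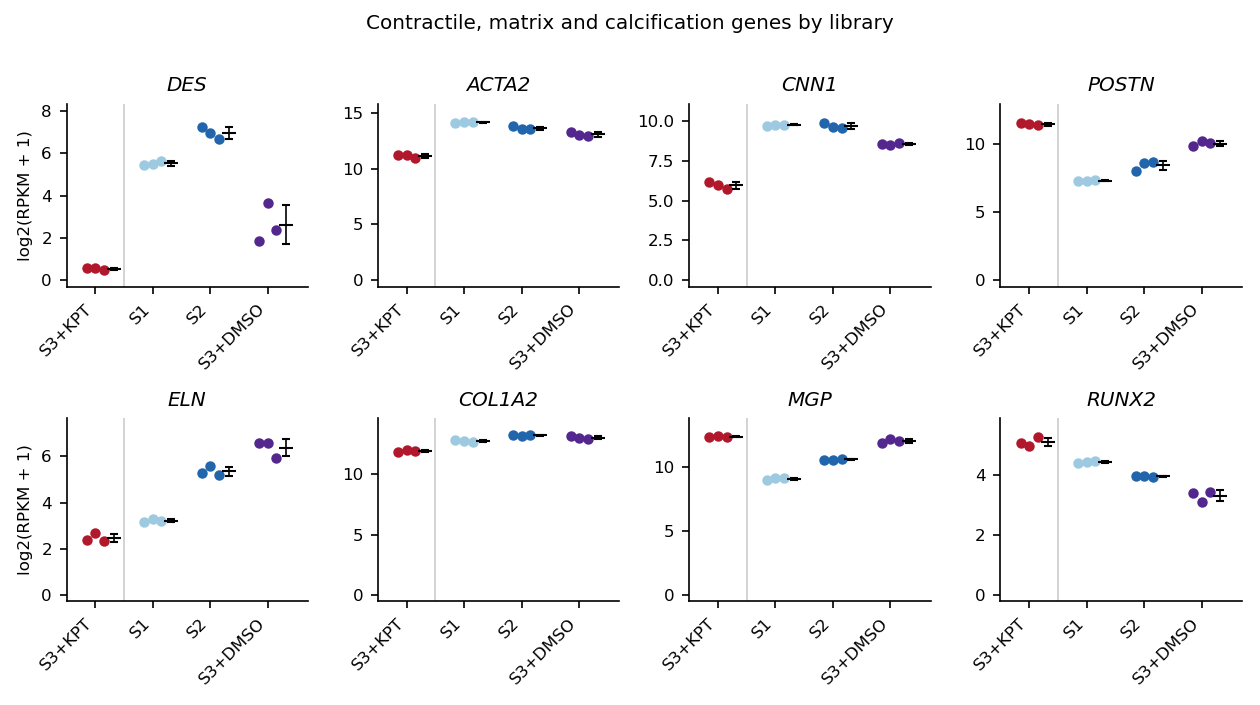
Log2(RPKM + 1) of 8 contractile, matrix and calcification genes in each library (coloured points), with the mean and SD of each group (black), Stage 3+KPT left of the grey line and the untreated groups right of it. DES, ACTA2, CNN1, ELN and COL1A2 are lowest in the KPT libraries, and POSTN, MGP and RUNX2 are highest there, MGP by 0.32 over Stage 3+DMSO.

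The largest rise on the log2(RPKM + 1) scale was that of DIO2, and AREG came next. DIO2 (chromosome 7, positions 109298356 to 109308540, minus strand), the deiodinase that activates thyroid hormone inside cells, had 420.4, 390.3 and 400.4 RPKM in the Stage 3+KPT libraries, against 0.653, 1.12 and 1.45 RPKM in the Stage 2 libraries (7.62, SE 0.30; adjusted p = 3.9e-10), a 375-fold ratio of means. AREG (chromosome 8, positions 74568826 to 74579007, plus strand), amphiregulin, a ligand of the EGF receptor, had 1252, 1109 and 1222 RPKM after KPT, against 12.1, 11.2 and 11.8 RPKM at Stage 2 (6.56, SE 0.23; adjusted p = 1.8e-10), a 102-fold ratio. With DMSO both stayed low, DIO2 at 1.83 ± 1.37 RPKM and AREG at 7.005 ± 3.99 RPKM.

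Feedback inhibitors of EGF receptor and MAP kinase signalling rose with the ligands. Of 17 tested genes of this list 14 rose and 1 fell (median 1.28). EREG, epiregulin, had 46.8, 38.2 and 32.9 RPKM after KPT and at most 0.765 RPKM in a Stage 2 library (4.86). SPRY1, an inhibitor of receptor tyrosine kinase signalling, averaged 205.5 ± 5.62 RPKM after KPT and 5.75 ± 0.609 RPKM at Stage 2 (4.94), and DUSP4, a MAP kinase phosphatase, 22.6 ± 1.53 and 0.989 ± 0.133 RPKM (3.57). DUSP7, another phosphatase of the family, fell to 16.6 RPKM, against 38.4 RPKM (-1.17).

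Immediate early genes were raised in part. Of 20 tested, 14 rose and 2 fell (median 0.66), against 42.5% higher and 24.9% lower of all genes. NR4A2, an orphan nuclear receptor, had 435.5, 419 and 450.9 RPKM in the Stage 3+KPT libraries, against 21.9, 25.3 and 24.7 RPKM in the Stage 2 libraries (4.13, SE 0.28; adjusted p = 4.9e-08). MAFF, a small MAF factor, averaged 238.6 ± 14.3 and 23.0 ± 3.03 RPKM (3.33), and ATF3, a stress-induced repressor, 113.3 ± 8.72 and 14.4 ± 1.45 RPKM (2.89), with 43.7 ± 16.98 RPKM with DMSO. KLF10, a TGF-beta-induced repressor, fell to 52.0 ± 3.12 RPKM, against 132.2 ± 10.2 RPKM (-1.33), and SRF, the factor that drives contractile genes, to 17.3 against 25.3 RPKM (-0.52).

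Chemokines and NF-kB targets rose. Of 21 tested, 16 rose and 2 fell (median 1.14), and 16 lay above all 9 untreated libraries. CXCL8, interleukin 8, which attracts neutrophils, had 90.3, 80.4 and 71.1 RPKM in the Stage 3+KPT libraries, against 1.53, 1.63 and 0.922 RPKM in the Stage 2 libraries (5.12, SE 0.16; adjusted p = 8.4e-11). CXCL2 averaged 116.5 ± 16.4 and 2.28 ± 1.26 RPKM (5.22), and the pig chemokine AMCF-II 247.7 ± 18.3 and 8.57 ± 1.41 RPKM (4.71). IL6 had 392.4, 375.7 and 343.9 RPKM after KPT, against 60.6, 47.8 and 50.2 RPKM at Stage 2 (2.79), and 22.4 RPKM with DMSO.

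The list was not uniform. BIRC3, an inhibitor of apoptosis under NF-kB, averaged 299.2 ± 14.3 RPKM after KPT and 35.3 ± 5.78 RPKM at Stage 2 (3.06), and VCAM1, an adhesion molecule for leukocytes, 1112 ± 31.1 and 398.8 ± 64.3 RPKM (1.49). CCL2, a monocyte chemokine, rose by 0.69, to 2396 ± 258 RPKM against 1482 ± 113 RPKM, while with DMSO it was at 540.1 ± 12.3 RPKM. The 2 that fell were NFKBIZ, a nuclear cofactor of NF-kB (-2.22), and IL33 (-1.22), an alarm cytokine at 77.5 ± 11.0 RPKM after KPT and 181.4 ± 13.9 RPKM at Stage 2. Of 21 tested interferon-induced genes, 2 rose and 3 fell (median -0.04), against 42.5% higher and 24.9% lower of all genes. That count depended on the fit, with 5 rises and 5 falls when the 2 groups were fitted alone, 6 and 3 with library quality weights, and 8 and 3 without replicate 1 of every group. Summed RPKM of the 22 interferon-induced genes with a row, tested or not, were 455.8 to 483.2 in the Stage 3+KPT libraries and 389.3 to 497.6 in the Stage 2 libraries, but 373.1 to 1332 in the Stage 3+DMSO libraries, which enter the same fit.

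Prostaglandin genes did not move as a group. Of the 10 tested, 3 rose, a share below the 42.5% of all genes, and 2 fell (median 0.07), and 3 rose and 5 fell after median-ratio rescaling. PTGS2, the inducible cyclooxygenase, had 1459, 1279 and 1453 RPKM in the Stage 3+KPT libraries, against 104.4, 113.3 and 110.7 RPKM in the Stage 2 libraries (3.66, SE 0.09; adjusted p = 1.8e-11), and 57.2 ± 3.68 RPKM with DMSO. PTGS1, the constitutive cyclooxygenase, averaged 533.1 ± 45.8 and 108.8 ± 0.974 RPKM (2.28), and PLA2G4A, the phospholipase that frees arachidonic acid, 285.9 ± 15.2 and 123.8 ± 15.4 RPKM (1.21). PTGIS, the prostacyclin synthase, fell to 40.8 ± 2.99 RPKM, against 87.6 ± 2.62 RPKM (-1.09).

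Several further signals stood among the 15 largest rises. NPPB, the B-type natriuretic peptide, had 39.9, 51.9 and 55.1 RPKM after KPT and 2058 reads, against 2 reads in all at Stage 2, a KPT over Stage 2 ratio of 914 with a 95% counting interval of 253 to 7555. RGS4, which switches off G-protein signals, averaged 793.3 ± 90.4 RPKM after KPT and 8.78 ± 0.966 RPKM at Stage 2 (6.34), and its relative RGS5 averaged 52.9 ± 9.25 and 0.240 ± 0.0527 RPKM (5.43). Both were also higher with DMSO than at Stage 2, RGS4 at 70.6 ± 27.96 RPKM and RGS5 at 3.27 ± 0.208 RPKM. SUSD4, CHI3L2, MT1X, GKN3 and RLN3 rose by 4.96 to 5.45, and of genes far above all untreated libraries, MDK, the growth factor midkine, averaged 1304 ± 127 RPKM after KPT and 42.9 ± 3.91 RPKM at Stage 2 (4.89), and HSD3B1, an enzyme of steroid synthesis, 83.9 ± 15.9 and 2.13 ± 0.303 RPKM (4.75).

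**Figure D4:**
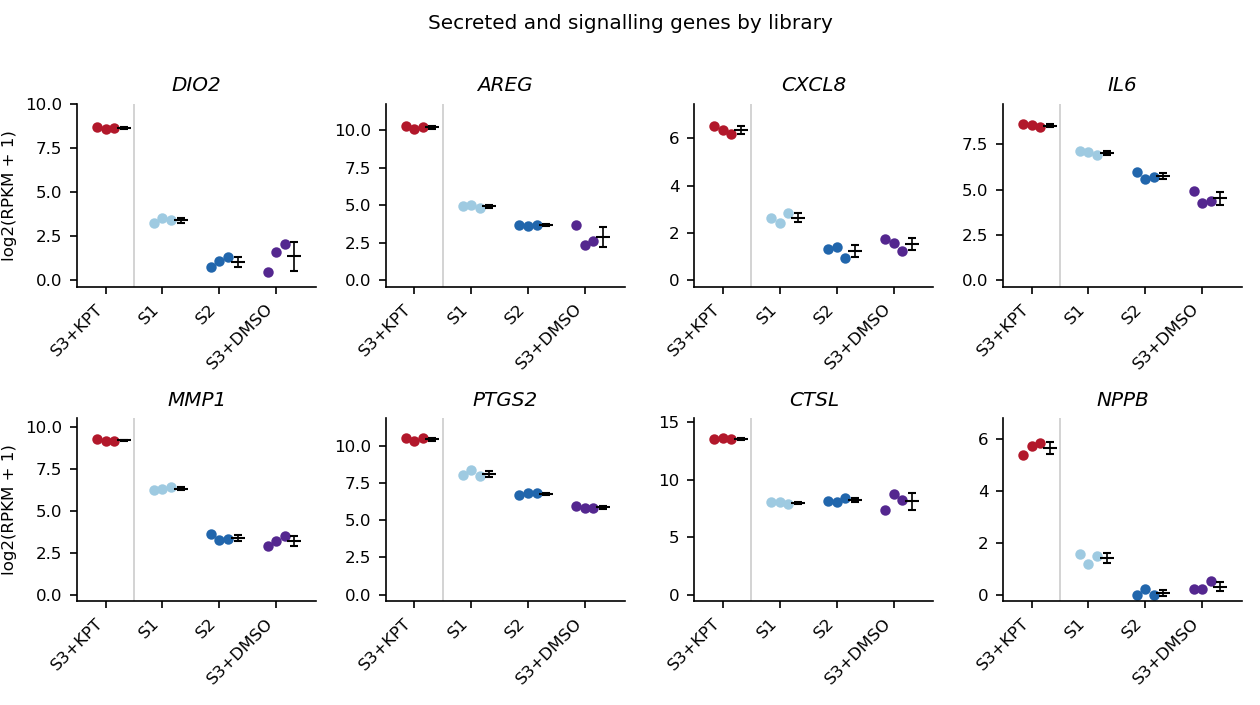
Log2(RPKM + 1) of 8 secreted or signalling genes in each library (coloured points), with the mean and SD of each group (black), Stage 3+KPT left of the grey line and the untreated groups right of it. In each panel all 3 KPT libraries lie above all 9 untreated libraries.

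Genes of autophagy and the lysosome rose, CTSL most. CTSL, cathepsin L, had 11874, 12949 and 11870 RPKM in the Stage 3+KPT libraries, against 287.6, 271.8 and 344.9 RPKM in the Stage 2 libraries (5.34, SE 0.25; adjusted p = 1.8e-09), and 297.7 ± 136 RPKM with DMSO. CTSB, cathepsin B, had 6464, 7819 and 6979 RPKM after KPT, against 1278, 1328 and 1324 RPKM at Stage 2 (2.43). Of 25 tested genes of autophagy and lysosome 22 rose and 2 fell (median 0.93), among them ULK1, the kinase that starts autophagy (1.69), and LAMP2, a lysosomal membrane protein (1.47). TFEB, the master regulator of these genes, was one of the 2 that fell, to 9.28 ± 0.716 RPKM, against 12.7 ± 1.54 RPKM (-0.42), and the other was WIPI1 (-1.16). After median-ratio rescaling 18 of the list rose and 3 fell. With DMSO 16 of the 25 were also higher than at Stage 2 and 2 were lower (median 0.34). KPT minus DMSO gave 18 higher and 3 lower (median 0.54).

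Ribosomal protein genes fell as a block. Of 40 tested genes of the cytoplasmic ribosome 39 fell and none rose (median -0.74), and 38 lay below all 9 untreated libraries. RPL3, of the large subunit, had 684.8, 782.4 and 684.3 RPKM in the Stage 3+KPT libraries, against 1502, 1424 and 1429.7 RPKM in the Stage 2 libraries (-1.02, SE 0.06; adjusted p = 2.2e-08), and 1615 ± 71.6 RPKM with DMSO. The fall was called for 40 genes after median-ratio rescaling and for 37 after quantile normalization. Stage 3+DMSO minus Stage 2 gave 1 call in each direction. Reads of these genes may be shared with near-identical pseudogenes.

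Factors that assemble the ribosome did the opposite. Of 30 tested, 23 rose and 2 fell (median 0.53), and after median-ratio rescaling 18 rose and 4 fell. RRP12, which acts in export and maturation of pre-ribosomes, averaged 12.6 ± 0.201 RPKM after KPT and 3.47 ± 0.275 RPKM at Stage 2 (1.61), and UTP15, of the small-subunit processome, 19.7 ± 2.29 and 9.0004 ± 2.12 RPKM (1.07). With DMSO 27 of the 30 were already higher than at Stage 2 (median 0.52). KPT minus DMSO gave 10 in each direction, near the 30.5% higher and 29.5% lower of all genes. MYC, which drives ribosome synthesis, fell to 14.2 ± 0.471 RPKM, against 19.3 ± 3.12 RPKM (-0.41), a call lost without Stage 2 replicate 1 (adjusted p = 0.070), and FBL, fibrillarin, fell to 37.1 against 49.1 RPKM (-0.39).

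Proteasome subunits rose in 20 of 26 tested genes with no fall (median 0.36), and 13 rose and 5 fell after median-ratio rescaling. PSMD12, a lid subunit, averaged 73.0 ± 6.72 RPKM after KPT and 35.0 ± 7.53 RPKM at Stage 2 (1.06). Nuclear genes of the respiratory chain had 19 rises and 2 falls of 35 (median 0.26), but 11 and 8 after median-ratio rescaling. For the 13 messages encoded by the mitochondrial genome the direction depended on scaling, with 2 rises and 1 fall as deposited (median 0.17), 1 rise and 3 falls after median-ratio rescaling, and 8 rises after quantile normalization.

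Genes of amino acid synthesis, which belong to the integrated stress response list given below, differed among themselves. PSAT1, an enzyme of serine synthesis, had 17.5, 19.98 and 18.7 RPKM in the Stage 3+KPT libraries, against 103.2, 91.0 and 89.5 RPKM in the Stage 2 libraries (-2.28, SE 0.09; adjusted p = 6.5e-10), while with DMSO it was at 599.7 ± 84.5 RPKM. ASNS, asparagine synthetase, showed the same order, at 34.0 ± 1.53 RPKM after KPT, 255.8 ± 23.0 RPKM with DMSO and 69.6 ± 3.66 RPKM at Stage 2 (-1.01). Named after their values were seen, PHGDH and PSPH, the other enzymes of serine synthesis, were higher after KPT than at Stage 2 (1.12 and 0.99), while the mitochondrial one-carbon enzymes SHMT2 and MTHFD2 were lower (-1.51 and -1.55). Of 10 aminoacyl-tRNA synthetases, which charge tRNAs, 6 fell and 2 rose (median -0.48), and with DMSO 7 were higher than at Stage 2. CARS fell to 19.7 ± 0.497 RPKM after KPT, against 44.6 ± 5.13 RPKM (-1.13).

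Stress responses were mixed. Of 23 genes of the unfolded protein and integrated stress responses 13 rose and 8 fell (median 0.39). The shares of all genes were 42.5% and 24.9%. With KPT 7 were higher and 14 lower than with DMSO, against 30.5% and 29.5% of all genes. PPP1R15A, which restarts translation by dephosphorylating eIF2-alpha, rose to 119.7 ± 8.08 RPKM, against 21.3 ± 1.48 RPKM (2.44), EDEM1, which targets misfolded glycoproteins, to 59.2 ± 2.00 against 21.3 ± 1.60 RPKM (1.44), and HSPA5, the main chaperone of the endoplasmic reticulum, to 1336 ± 23.7 against 752 ± 28.4 RPKM (0.83). Among 23 heat shock genes 13 rose and 4 fell (median 0.25), but 10 rose and 8 fell after median-ratio rescaling (median 0.04), with HSPA4L at 86.6 ± 12.3 RPKM after KPT and 9.80 ± 2.90 RPKM at Stage 2 (3.05), and CRYAB, a small heat shock protein of muscle, at 310.2 ± 24.6 and 1047 ± 69.7 RPKM (-1.75). NRF2 targets gave 8 rises and 7 falls of 19 (median -0.03), a share of rises like the 42.5% of all genes, and 8 and 11 after median-ratio rescaling, with FTL, the ferritin light chain, at 7609 ± 741 and 2127 ± 102 RPKM (1.84).

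Glycolysis and sterol synthesis were lower. Of 19 glycolysis genes 12 fell and 1 rose (median -0.38), with LDHA, which makes lactate, at 1645, 1580.2 and 1508 RPKM in the Stage 3+KPT libraries, against 2819, 2764 and 2843 RPKM in the Stage 2 libraries (-0.83). These genes were lower still with DMSO, where 16 fell against Stage 2 (median -0.79), and 12 were higher with KPT than with DMSO. Of 23 cholesterol synthesis genes 16 fell and 3 rose (median -0.89), with LSS, lanosterol synthase, at 36.9 ± 3.08 RPKM after KPT and 104.3 ± 7.56 RPKM at Stage 2 (-1.48). With DMSO 21 of the 23 were also lower than at Stage 2 and 1 was higher (median -0.76). KPT minus DMSO gave 9 higher and 12 lower (median -0.21). HSD17B7, also of that pathway, rose to 172.7 ± 7.87 RPKM, against 44.2 ± 6.42 RPKM (1.95). Hypoxia genes had 6 rises and 8 falls of 18 (median -0.25), against 42.5% higher and 24.9% lower of all genes. HIF1A itself was at 1274 ± 73.3 and 597.5 ± 95.9 RPKM (1.102) and its target PDK1 at 23.2 ± 1.89 and 91.7 ± 2.105 RPKM (-1.94). With DMSO 2 of the 18 hypoxia genes were higher and 13 lower than at Stage 2 (median -0.49). KPT minus DMSO gave 10 of them higher and 7 lower (median 0.29).

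Genes of quiescence and of FOXO factors were raised in part. Of 16 tested, 10 rose and 4 fell (median 0.86), against 42.5% higher and 24.9% lower of all genes. The share of falls was thus like that of all genes. ARRDC3, an alpha-arrestin, had 103.5, 93.5 and 110.1 RPKM in the Stage 3+KPT libraries, against 16.4, 19.2 and 23.5 RPKM in the Stage 2 libraries (2.33, SE 0.15; adjusted p = 2.7e-08), and KLF9 averaged 77.8 ± 4.05 and 22.9 ± 2.13 RPKM (1.72). TXNIP, the arrestin that binds thioredoxin, averaged 12.8 ± 1.44 RPKM after KPT and 29.2 ± 9.77 RPKM at Stage 2, a fall of 1.08 whose call was lost in 8 of 18 alternatives. Of the 4 tested genes on the C/EBP list 3 rose. CEBPB rose to 261.6 ± 22.8 RPKM, against 113.0 ± 15.4 RPKM (1.21), and CEBPD by 0.30, the second not called after median-ratio rescaling (adjusted p = 0.28). CEBPZ, which is on the list by its name only and is not a factor of that family, rose by 1.20.

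Genes that answer to BMP and TGF-beta mostly fell. Of 17 tested, 10 fell, against 24.9% of all genes, and 5 rose (median -0.54), and after median-ratio rescaling 12 fell and 4 rose. The BMP-induced repressors went apart, ID1 to 97.9 ± 7.14 RPKM after KPT, against 250.3 ± 4.68 RPKM (-1.35), and ID2 to 351.9 ± 17.2 RPKM, against 65.1 ± 4.39 RPKM (2.42). Of 16 Wnt genes 5 rose and 6 fell (median -0.05), with the ligand WNT5A at 26.3 ± 1.84 and 1.05 ± 0.103 RPKM (3.73) and the transcription factor TCF7 at 1.21 ± 0.105 and 8.00 ± 0.296 RPKM (-2.03). Of 10 Notch genes 5 rose and 3 fell (median 0.31), with the receptor NOTCH3, held by 2 gene IDs, at 53.3 ± 2.67 and 15.8 ± 1.15 RPKM (1.69). Among all tested genes 42.5% rose and 24.9% fell, so neither the Wnt nor the Notch count is read as a change of the group.

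Markers of the labelled cell type were present throughout but lower after KPT. Summed over 12 tested markers of fibroblast-like valve interstitial cells, RPKM were 21521 to 22912 in the Stage 3+KPT libraries and 45964 to 47361 in the Stage 2 libraries, and 10 of the 12 fell and 1 rose, with VIM, vimentin, at 4606 ± 198 and 9771 ± 382 RPKM (-1.09). Of 12 endothelial markers with a row 7 were tested, of which 1 was called higher and 3 lower after KPT than at Stage 2. All 12 together summed to 70.2 to 74.8 RPKM after KPT and 88.2 to 93.1 RPKM at Stage 2, with VWF at 0 in all 3 KPT libraries and at most 0.0221 RPKM at Stage 2. Of 12 leukocyte markers with a row 2 were tested, of which 1 was called higher after KPT than at Stage 2 and the other was not called. All 12 together summed to 13.0 to 15.2 RPKM after KPT and 12.4 to 15.1 RPKM at Stage 2, and PTPRC reached at most 0.0184 RPKM after KPT and was 0 at Stage 2. No epithelial or erythroid marker passed the expression filter, and the single tested cardiomyocyte and adipocyte markers were not called. The 4 tested smooth muscle markers, all also in the contractile list, fell.

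A sign of RNA quality also differed between the groups. The median over genes of log2((last exon RPKM + 1)/(first exon RPKM + 1)) was 0.305 to 0.374 in the Stage 3+KPT libraries and 0.216 to 0.257 in the Stage 2 libraries (means 0.341 ± 0.0347 and 0.232 ± 0.0214), without overlap (two-sided exact permutation test, p = 0.1, the smallest that 3 against 3 allows). Stage 3+DMSO libraries were at 0.208 to 0.234. The part of this ratio in the gene results was not tested.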

How the data were processed

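Poly(A) messenger RNA of the 12 libraries was prepared with the Illumina TruSeq Stranded mRNA kit, per the labels' protocols. The submitters' processing notes name TopHat2 2.1.0 as a tool. No counter, genome build or annotation release was given in the sources used here. RPKM values for 22861 genes and 189618 exons with Ensembl pig IDs were deposited. Strand use in counting was not stated, and overlapping or antisense genes may share reads.

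Multiplying RPKM by exon length and a library total gave whole reads for all values, within 0.0001 of a read, with 23287593 to 43293744 reads over genes per library. These reads gave the 95% exact counting intervals, which cover counting error only.

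log2(RPKM + 1) of all 12 libraries entered one limma 3.58.1 fit (R 4.3.3) with a coefficient per group and an expression trend. Genes with RPKM of at least 1 in at least 3 libraries were tested (13046, of which 10779 had a symbol), so a listed gene low in every group has no test. This scale understates changes of low genes. Benjamini-Hochberg adjusted p under 0.05 was called. Where several IDs held a symbol, the ID with the highest mean RPKM was used. Values after ± are SD over 3 libraries.

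The comparison and the 38 gene lists were chosen with earlier results of these data known. Named genes are the 15 largest rises and falls with non-overlapping groups, up to 4 called members each way and the 2 most abundant of each list, a fixed panel, and up to 10 genes each way farthest from all untreated libraries; not all of these are printed. There were 18 alternatives, namely other pseudocounts, filters, scalings and fits, the replicate block and leaving out each Stage 3+KPT and Stage 2 library; limma-voom with median-ratio library sizes on recovered reads and leaving out replicate 1 of every group were added after seeing the data.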

Additional observations from a re-analysis of the deposited data

How the results depend on the processing

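Counts of higher and lower genes stayed within 1.5 times of 5549 and 3252 in all 18 alternatives, and so did the count of genes at least 2-fold higher. The number of genes at least 2-fold lower in Stage 3+KPT was 952, against 1619 with limma-voom on the recovered reads, which changes both the added constant and the scaling; the cause was not tested. Leaving out each Stage 3+KPT and Stage 2 library in turn gave 5188 to 5391 higher and 3026 to 3192 lower genes. Leaving out replicate 1 of every group gave 5202 and 3198. The labels do not say whether replicate numbers pair the samples. Deviations of same-numbered Stage 3+KPT and Stage 2 libraries correlated at -0.13, -0.13 and 0.05, which cannot settle it with 3 libraries a group. The replicate block gave 5487 higher and 3224 lower genes. Of 8801 calls, 7325 were kept after median-ratio rescaling with none reversed, and 7415 after quantile normalization with 1 reversed.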

Other observations

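Lists of complement and antigen presentation, IGF axis and histone genes had shares of calls near those of all tested genes (42.5% higher and 24.9% lower), so only single members are described. Of 16 tested complement and antigen presentation genes, 6 rose and 5 fell against Stage 2 (median log2 fold change 0.09, against 0.18 for all genes). TAP1, which is held by 2 gene IDs and carries peptides for presentation on MHC class I, averaged 114.9 ± 9.63 RPKM after KPT and 45.5 ± 5.44 RPKM at Stage 2 (SD, n = 3 each; 1.32, limma adjusted p = 8.9e-06). C7, a late complement component, averaged 1.73 ± 0.431 RPKM after KPT and 10.7 ± 1.29 RPKM at Stage 2 (-2.104), with 12.4 ± 6.397 RPKM with DMSO.

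Of 11 tested IGF axis genes, 5 rose and 3 fell (median 0.08). IGF1, the growth factor, averaged 162.3 ± 4.52 RPKM after KPT, 28.6 ± 5.24 RPKM with DMSO and 115.5 ± 17.7 RPKM at Stage 2 (Stage 3+KPT minus Stage 2, 0.50, limma adjusted p = 0.0037). IGF2R, the receptor that clears IGF2, averaged 90.001 ± 8.12 RPKM after KPT and 33.4 ± 3.06 RPKM at Stage 2 (1.40), with 69.3 ± 4.31 RPKM with DMSO. Of 9 histone genes 4 rose and 2 fell (median 0.28), and HIST2H2BE, a histone H2B gene, averaged 88.7 ± 4.79 RPKM after KPT and 20.1 ± 4.31 RPKM at Stage 2 (2.104), with 51.2 ± 5.72 RPKM with DMSO.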
